A study of Mus musculus with 8 samples.

Results

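The genes described here are 8 chemokine receptor genes of mouse chromosome 9, Ccr1, Ccr2, Ccr3, Ccr9, Cxcr6, Xcr1, Cx3cr1 and Ccrl2, among 39056 genes counted in mouse hearts. They were selected from the chemokine receptors of this chromosome as genes with lower counts in HVCN1 null than in WT hearts, so their difference between the genotypes is a description here and carries no test. HVCN1 is the voltage-gated proton channel that extrudes acid from phagocytes and other cells. RNA was sequenced from the hearts of 4 HVCN1 null (Hv1 null, gene knockout) and 4 WT (C57BL/6 background) male mice, 3 months old and without further treatment, with 1 library per heart. The deletion was in the whole animal, so leukocytes as well as cardiac cells lacked the channel. The hearts are numbered 1 to 4 (HVCN1 null) and 5 to 8 (WT), and the values are raw read counts per gene, given as counts or as CPM (counts scaled to a common library size).

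Chemokine receptors are membrane proteins that couple to inhibitory G proteins and steer leukocytes along gradients of small secreted proteins, the chemokines. In the heart, CX3CR1 is carried by resident macrophages and patrolling monocytes, and CCR2 by classical monocytes and the macrophages that arise from them. CCR1 is found on monocytes, neutrophils and some macrophages, CCR3 on eosinophils, CCR9 on thymocytes and gut-homing T cells, CXCR6 on T and NK cells, and XCR1 on cross-presenting dendritic cells. CCRL2 binds the attractant chemerin without classical G protein signaling and is also made by endothelial cells. Many of these genes lie side by side on chromosome 9 and arose by duplication.

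In the GENCODE annotation of GRCm38, 6 of the 8 genes lay within 435 kb, from the start of Ccr9 at 123678439 to the end of Ccr2 at 124113557. Along this stretch Ccr9 (+ strand) was followed by Cxcr6 (123806475 to 123811760, + strand), Xcr1 (123852315 to 123862029, - strand), Ccr1 (123962124 to 123968692, - strand), Ccr3 (124021972 to 124031689, + strand) and Ccr2 (from 124101950, + strand). The gaps between neighbors ran from 22.1 kb (Ccr9 to Cxcr6) to 100 kb (Xcr1 to Ccr1). Cx3cr1 (119901616 to 120069879, - strand) lay 3609 kb before Ccr9. Ccrl2 (111054486 to 111057519, - strand) lay a further 8844 kb away, well apart from the other receptors. Cxcr6 sat inside the span of Fyco1 without sharing an exon base with it, whereas 18.8% of the exon bases of Ccr9 were shared with AC165425.1 and 2.62% with Gm17200. Counts of Ccr9 are therefore uncertain. Ccr1 was most like Ccr1l1, with 77.5% identity over 1036 bases, and the most alike pair of members, Ccr1 and Ccr3, had 70.5% identity over 963 bases.

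The bases ahead of 3 neighbors in the stretch are shown because their counts went different ways, lower in HVCN1 null hearts for Ccr1 and Xcr1 but not for Cxcr6. The sequences are RefSeq promoter windows (GRCm38.p6), read 5′ to 3′ on the strand of the gene and ending just before the start site or, for Cxcr6, before the first annotated exon base. Capitals mark matches, on either strand, to 4 short motifs: GAGGAA (ETS core), TGTGGT (RUNX), TGANTCA (AP-1) and CACGTG (E-box). The windows are chr9:123968693-123968942 (- strand) for Ccr1, chr9:123862030-123862279 (- strand) for Xcr1 and chr9:123806227-123806474 (+ strand) for Cxcr6.
Ccr1: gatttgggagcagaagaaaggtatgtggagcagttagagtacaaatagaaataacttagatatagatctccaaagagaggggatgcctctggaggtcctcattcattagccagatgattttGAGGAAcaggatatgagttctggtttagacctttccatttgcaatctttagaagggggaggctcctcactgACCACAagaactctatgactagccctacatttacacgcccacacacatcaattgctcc
Xcr1: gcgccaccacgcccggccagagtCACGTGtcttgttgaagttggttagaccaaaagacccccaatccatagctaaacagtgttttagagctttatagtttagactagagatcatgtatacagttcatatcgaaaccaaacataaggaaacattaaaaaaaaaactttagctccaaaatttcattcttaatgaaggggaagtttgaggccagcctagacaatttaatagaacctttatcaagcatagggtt
Cxcr6: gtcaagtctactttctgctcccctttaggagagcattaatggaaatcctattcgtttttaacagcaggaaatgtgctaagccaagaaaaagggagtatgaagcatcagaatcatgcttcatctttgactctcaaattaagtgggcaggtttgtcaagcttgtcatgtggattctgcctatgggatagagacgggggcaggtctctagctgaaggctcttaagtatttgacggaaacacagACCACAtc

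The RUNX letters lay 53 to 58 bases ahead of the start of Ccr1, 5 to 10 bases ahead of that of Cxcr6 and, in a window not shown, 49 to 54 bases ahead of that of Cx3cr1. These 3 were the only members with the RUNX letters among the first RefSeq windows of the 8 genes, against 14.2% of 27025 windows of 250 bases over all genes. The ETS core was present in 2 of 8 (Ccr1 and Ccr3, 23.1% of all windows), AP-1 in 1 (Ccr3, 6.9%) and the E-box in 1 (Xcr1, 6.0%), and no match overlapped another motif. The windows of Ccr2, Ccrl2 and Ccr9 held none of these letters. Their GC content ran from 37.2% (Ccr2) to 54.0% (Ccrl2), with a median of 43.6% against 52.0% over all genes. A match of letters describes the window and is not a measured binding site.

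Libraries held between 25851255 and 38874640 counts. The knockout showed in Hvcn1 itself, on chromosome 5, whose counts were 6, 6, 1 and 3 in hearts 1 to 4 and 102, 49, 99 and 68 in hearts 5 to 8. Of 14796 genes that passed edgeR's filter on low counts, 169 were differentially expressed genes (DEGs, edgeR's quasi-likelihood test, Benjamini-Hochberg adjusted p under 0.05), which is 1.14%. Of the genes tested, 0.399% were DEGs lower in HVCN1 null hearts, and in 3.45% every HVCN1 null heart lay below every WT heart. The median log2 fold change (HVCN1 null over WT) over all genes was -0.01, and 52.7% of them were lower. The dissection of the hearts varied: summed atrial markers (Nppa, Myl7, Sln and others) were at 3465 to 8901 CPM in hearts 2, 3, 5 and 7 and at 195 to 431 CPM in the others, so that each genotype had 2 hearts of each kind. No batch is given in the labels.

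Of the 8 receptor genes, 4 had enough counts to be tested, namely Ccr1, Ccr2, Cx3cr1 and Ccrl2, and these held 97.5% of the counts of all 8. The median of their log2 fold changes was -1.11, and all 4 were negative, as the selection sought. Ccr1 was the only one of the 4 among the DEGs (background 0.399%), and in 3 of the 4 no HVCN1 null heart reached the lowest WT heart (background 3.45%). Nothing can be read from these counts, since the same contrast chose the genes. Ccrl2 was level between the genotypes despite its selection, and Cxcr6, among the genes too low to test, had more counts in HVCN1 null than in WT hearts.

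**Figure D1:**
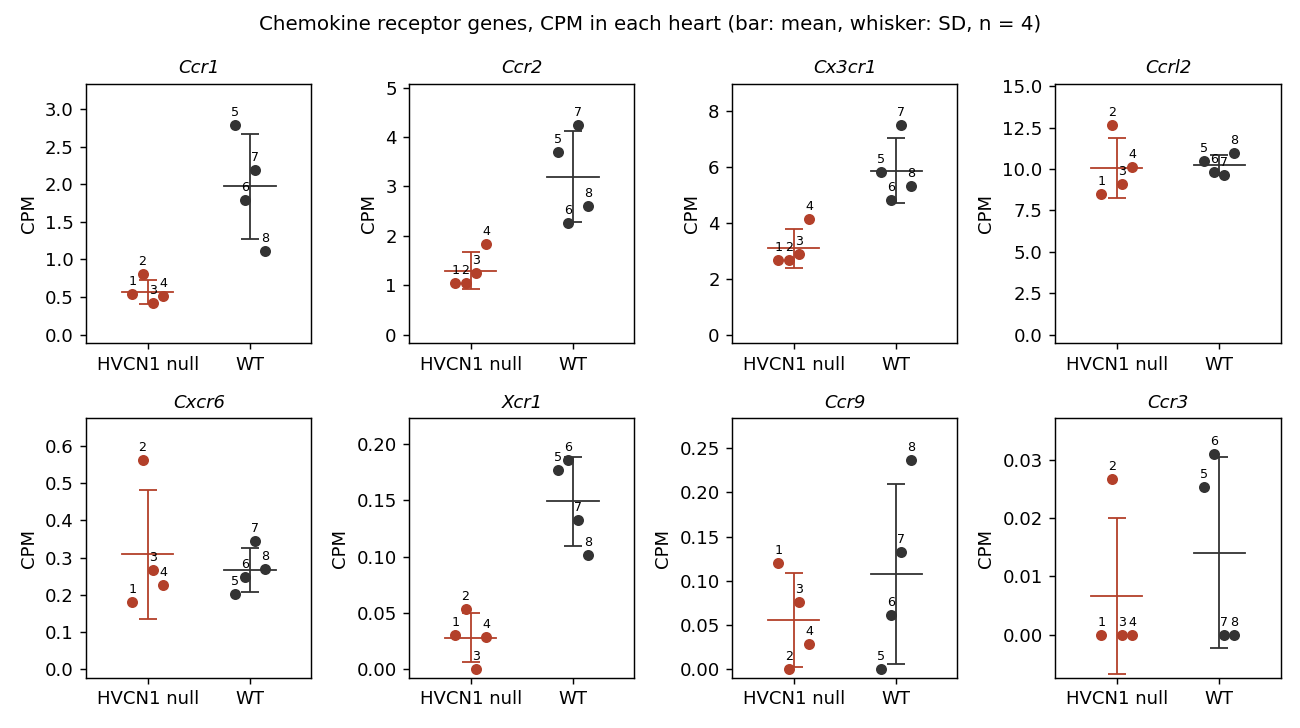
CPM of the 8 chemokine receptor genes in each heart (y axis, from about 0, its own scale for each gene), with HVCN1 null hearts 1 to 4 in red and WT hearts 5 to 8 in black. Horizontal bars are means and whiskers SD (n = 4). The groups stand apart for Ccr1, Ccr2, Cx3cr1 and Xcr1 and overlap for Ccrl2, Cxcr6, Ccr9 and Ccr3.

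Ccr1, the receptor of CCL3, CCL5 and the mouse chemokines CCL6 and CCL9, differed most among the tested members. Its counts were 18, 30, 11 and 18 in hearts 1 to 4 (HVCN1 null) and 110, 58, 83 and 33 in hearts 5 to 8 (WT). In CPM these were 0.540, 0.803, 0.418 and 0.509 against 2.78, 1.79, 2.20 and 1.11. The lowest WT heart, 8, still lay above the highest HVCN1 null heart, 2, and the groups did not overlap. Mean CPM was 0.567 ± 0.165 (SD, n = 4) in HVCN1 null and 1.97 ± 0.702 in WT hearts, 28.8% of the WT level. The log2 fold change was -1.78 (SE 0.32).

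Ccr2, the receptor of CCL2, CCL7 and CCL12 through which classical monocytes leave the bone marrow, had 35, 39, 33 and 65 counts in HVCN1 null hearts 1 to 4. In WT hearts 5 to 8 it had 146, 73, 160 and 77. The WT hearts fell into a higher pair (5 and 7) and a lower pair (6 and 8), and every one of them was above HVCN1 null heart 4, the highest of its group. Mean CPM was 1.30 ± 0.373 in HVCN1 null and 3.20 ± 0.924 in WT hearts (SD, n = 4), with a log2 fold change of -1.30 (SE 0.27).

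Cx3cr1, the receptor of the membrane-bound chemokine fractalkine, had the highest level, in CPM and per exon length, of the members whose groups stood apart. Its counts were 89, 100, 76 and 146 in hearts 1 to 4 (HVCN1 null) and 230, 156, 283 and 158 in hearts 5 to 8 (WT). Hearts 1 to 3 were nearly level in CPM, heart 4 stood above them at 4.13 CPM, and the lowest WT heart, 6, was at 4.82 CPM. Mean CPM was 3.09 ± 0.698 in HVCN1 null and 5.87 ± 1.15 in WT hearts (SD, n = 4), 52.7% of the WT level, with a log2 fold change of -0.92 (SE 0.19).

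Ccrl2, the atypical chemerin receptor, had 283, 472, 239 and 357 counts in hearts 1 to 4 (HVCN1 null) and 415, 318, 364 and 324 in hearts 5 to 8 (WT). The highest and the lowest CPM were both in HVCN1 null hearts, 12.6 in heart 2 and 8.50 in heart 1, with all WT hearts between them. Mean CPM was 10.1 ± 1.82 against 10.2 ± 0.606 (SD, n = 4), and the log2 fold change was -0.02 (SE 0.13). The sign of this value turned to 0.02 when library sizes were not scaled.

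Xcr1, the receptor of the lymphocyte chemokine XCL1, had few counts, with 1, 2, 0 and 1 in hearts 1 to 4 (HVCN1 null) and 7, 6, 5 and 3 in hearts 5 to 8 (WT). Every HVCN1 null heart was below every WT heart. Over the groups these were 4 and 21 counts, a ratio of 0.200 with an exact 95% interval from 0.050 to 0.594, which covers counting error only. The 0 of heart 3 allows up to 0.114 CPM there (3 counts). Clec9a, which marks the same dendritic cells, had 4, 5, 4 and 7 counts in hearts 1 to 4 and 9, 10, 30 and 5 in hearts 5 to 8, overlapping between the genotypes. Itgae, another of their markers, had 7, 6, 2 and 8 against 21, 12, 16 and 12 and did not overlap (log2 fold change -1.32, edgeR's quasi-likelihood test, adjusted p = 0.158). Batf3 and Wdfy4, of the same cells, overlapped and were nearly level, with 43 and 48 and with 734 and 847 counts over the groups (log2 fold changes -0.07 and -0.14). Of the rest of the dendritic list Itgax was at -0.85, Zbtb46 at -0.04 and Cd209a at 0.80 (adjusted p = 0.295, 0.949 and 0.513), and Flt3 had 13 and 25 counts.

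Cxcr6, the receptor of CXCL16, had 6, 21, 7 and 8 counts in hearts 1 to 4 (HVCN1 null) and 8, 8, 13 and 8 in hearts 5 to 8 (WT). Apart from heart 2, and to a lesser degree heart 7, the hearts were at nearly the same count. The sums of 42 and 37 gave a ratio of 1.19 with an exact 95% interval from 0.749 to 1.91. Cxcr6 thus did not meet the selection for lower counts. It had a mean of 9.88 counts per heart and did not pass edgeR's filter on low counts. That filter goes by the number of hearts above a CPM cutoff, not by the mean. Ccr1, with a mean of 45.1, was the lowest member tested.

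Ccr9 had 4, 0, 2 and 1 counts in hearts 1 to 4 (HVCN1 null) and 0, 2, 5 and 7 in hearts 5 to 8 (WT). The groups overlapped, and the ratio of 7 to 14 counts was 0.526 with an exact 95% interval from 0.180 to 1.39. Heart 8, the highest for this thymocyte receptor, also held 30 of the 33 counts of Rag1 and 13 of the 14 counts of Dntt, enzymes of immature lymphocytes, and 13 counts of Themis, which had 0 to 5 in the others. The part of these in the Ccr9 count was not tested. Ccr3 was at the limit of detection, with 1 count in HVCN1 null heart 2 and 1 each in WT hearts 5 and 6, and no ratio is given. The eosinophil genes Siglecf, Prg2 and Epx were near 0 as well, with 5, 4 and 2 counts over all 8 hearts.

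The order of the 8 genes by level was not used in the selection. Per kilobase of exon, mean CPM over 8 hearts fell from 3.91 ± 0.485 (SD) for Ccrl2 through 0.994 ± 0.383 for Cx3cr1, 0.448 ± 0.313 for Ccr1, 0.332 ± 0.179 for Ccr2 and 0.149 ± 0.0629 for Cxcr6 to 0.0199 ± 0.0160 for Xcr1. Ccr9, at 0.00798, and Ccr3, at 0.00317, were the lowest. The order was the same in each genotype. Neighbors were compared within each heart on log2(CPM per kb + 0.05), by a two-sided exact permutation of signs over 8 hearts, with Benjamini-Hochberg adjustment over 7 pairs. Ccrl2 was above Cx3cr1 by 2.00 ± 0.55 (SD), Cx3cr1 above Ccr1 by 1.23 ± 0.57 and Cxcr6 above Xcr1 by 1.49 ± 0.53 on this log2 scale. Each of these held in 8 of 8 hearts (exact permutation, adjusted p = 0.0182 for each, from the smallest p the test allows, 0.00781).

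The other 4 neighbors did not differ beyond their spread over the 8 hearts. This spread pools the genotypes, so it includes the difference for which the members were selected. Ccr1 was above Ccr2 in 6 of 8 hearts by 0.27 ± 0.49 (exact permutation, adjusted p = 0.182). Mean CPM per kb of Ccr2 and Cxcr6 was 0.192 and 0.160 in HVCN1 null hearts, and 0.473 and 0.138 in WT hearts. Ccr2 was above Cxcr6 in 7 of 8 hearts by 0.86 ± 0.83 (exact permutation, adjusted p = 0.0547). The exception was HVCN1 null heart 2, and without it, or with the length of the longest transcript in place of all exons, this pair passed (adjusted p = 0.0273 and 0.0410 by the exact permutation). Xcr1 against Ccr9 and Ccr9 against Ccr3 gave adjusted p values of 0.175 and 0.273 in the exact permutation test, at levels of a few reads.

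**Figure D2:**
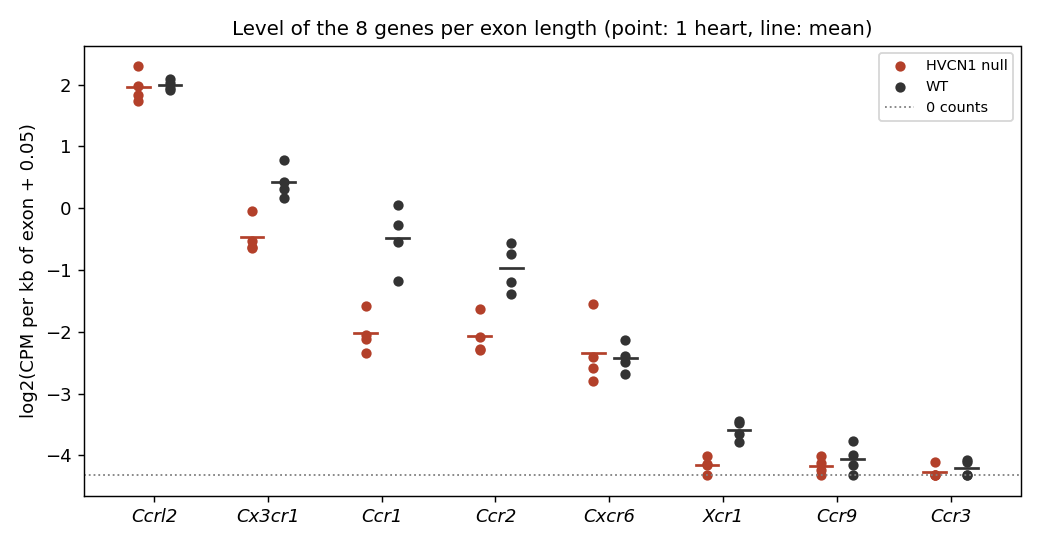
Level of the 8 receptor genes on log2(CPM per kb of exon + 0.05), with 1 point per heart and a line at the mean of each genotype (HVCN1 null red, WT black). The dotted line is the value of 0 counts. The genes descend in the same order in both genotypes, from Ccrl2 to Ccr3, which has no count in 5 of the 8 hearts.

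Markers of leukocytes stood lower beside the receptor genes, though none was a DEG. All 6 pan-leukocyte genes (Ptprc, Coro1a, Laptm5 and others) had negative log2 fold changes, with a median of -0.32 and 0 DEGs, and their summed level was 52.0 ± 7.53 CPM (42.3 to 60.6) in HVCN1 null and 67.0 ± 12.3 CPM (58.0 to 84.7) in WT hearts (SD, n = 4). All 14 macrophage markers, of which C1qa was the highest in CPM, were negative as well, with a median of -0.31, 0 DEGs and sums of 286 ± 31.7 and 348 ± 49.7 CPM (242 to 315 and 283 to 392). At an unadjusted p under 0.05 in edgeR's quasi-likelihood test there were 2 of the 6 pan-leukocyte and 4 of the 14 macrophage genes, against 11% of all genes tested (1625 of 14796). In bulk tissue, fewer cells of a type and less RNA per cell cannot be told apart.

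To set the receptors beside the leukocyte content of each heart, their CPM was divided by the sum of the pan-leukocyte genes. Ccr1 was at 1.14% ± 0.516 of that sum in HVCN1 null hearts and 2.89% ± 0.687 in WT hearts (SD, n = 4), a log2 ratio of -1.34, and the groups now met, with HVCN1 null heart 2 at 1.90% and WT heart 8 at 1.88%. Ccr2 was at 2.47% ± 0.413 against 4.76% ± 1.12 (log2 ratio -0.95) and Cx3cr1 at 5.93% ± 0.761 against 8.87% ± 1.86 (log2 ratio -0.58), both without overlap, although for Cx3cr1 the closest hearts were at 6.80% and 6.87%. Ccrl2 lay the other way, between 16.5% and 29.8% against 12.4% to 18.4% (log2 ratio 0.36), with overlap.

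Against the macrophage sum the log2 ratios were -1.47 for Ccr1, -0.96 for Ccr2, -0.60 for Cx3cr1 and 0.24 for Ccrl2. By this measure Ccr1 did not overlap between the groups, while Ccr2 (0.345% to 0.759% against 0.672% to 1.08%) and Cx3cr1 (0.886% to 1.70% against 1.44% to 1.91%) did. Against the monocyte sum the log2 ratios were -1.68 for Ccr1, -1.16 for Ccr2, -0.80 for Cx3cr1 and 0.09 for Ccrl2. Here too Ccr1 did not overlap, while Ccr2 (highest HVCN1 null heart 9.77%, lowest WT heart 9.66%) and Cx3cr1 (highest HVCN1 null heart 21.95%, lowest WT heart 20.6%) did. Whether the groups of Ccr1, Ccr2 and Cx3cr1 overlapped thus depended on the list used as the denominator.

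**Figure D3:**
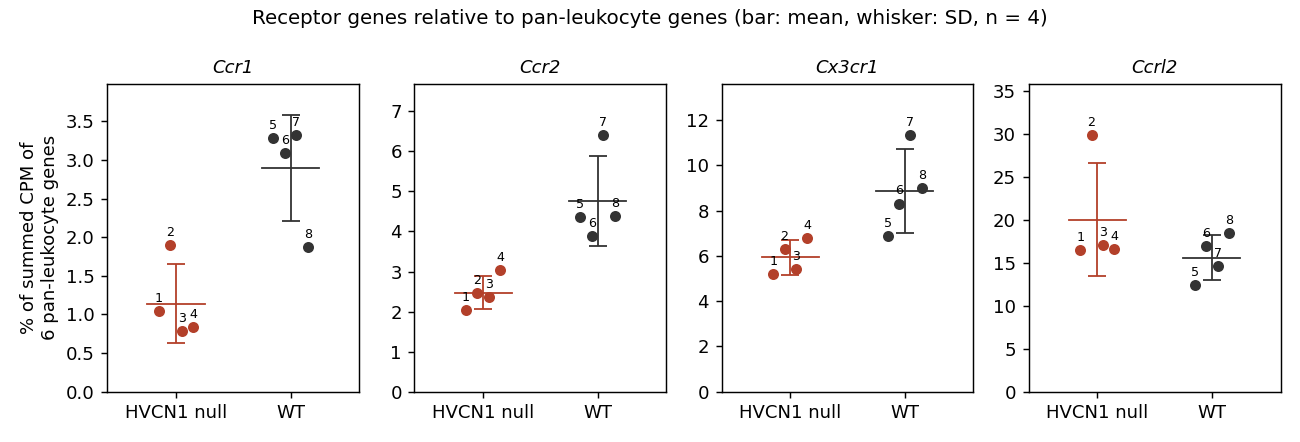
The 4 tested receptor genes as a percentage of the summed CPM of 6 pan-leukocyte genes in each heart (y axis from 0), HVCN1 null hearts 1 to 4 in red and WT hearts 5 to 8 in black, with means as bars and SD as whiskers (n = 4). By this sum the groups of Ccr2 and Cx3cr1 stand apart, those of Ccr1 meet at hearts 2 and 8, and those of Ccrl2 overlap.

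The markers of single leukocyte types were more mixed, and none held a DEG. Of the monocyte genes tested, 4 of 6 were negative (median -0.20), and the sums were 24.2 ± 9.12 and 23.7 ± 2.04 CPM, with Vcan the highest in CPM, so that the median and the mean sum differed in sign. Of the neutrophil genes 5 of 6 were negative (median -0.43, sums 15.9 ± 8.13 and 21.4 ± 8.01 CPM), and of the dendritic cell genes 5 of 6 (median -0.11, sums 26.2 ± 4.00 and 28.2 ± 1.18 CPM). T and NK cell genes were negative in 2 of 9 (median 0.16, sums 7.15 ± 2.43 and 7.08 ± 1.89 CPM), B cell genes in 1 of 6 (median 0.13, sums 11.7 ± 7.99 and 10.4 ± 5.01 CPM) and eosinophil and mast cell genes in 0 of 4 (median 0.41, sums 4.61 ± 1.41 and 3.24 ± 0.537 CPM). The part of cell content in the levels of the receptors was not tested.

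Of the other tissue markers, the cardiomyocyte sum was 59319 ± 6247 against 61889 ± 5126 CPM, the endothelial sum 851 ± 65.5 against 931 ± 79.2 CPM and the fibroblast sum 881 ± 170 against 918 ± 168 CPM. Platelet genes stood at 35.3 ± 29.6 and 28.9 ± 17.9 CPM, thymus genes at 1.32 ± 0.701 and 1.63 ± 1.07 CPM, lung genes at 0.604 ± 0.141 and 0.482 ± 0.260 CPM, and erythroid genes at 3543 ± 3348 and 6796 ± 5668 CPM. The atrial sums were 2386 ± 2311 and 3193 ± 4104 CPM. None of these lists held a DEG by edgeR's quasi-likelihood test.

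Since atrial content varied, the genotypes were also compared within the 4 hearts of high and the 4 of low atrial marker level, a split chosen after the data were seen. The log2 fold change of Ccr1 was -2.0 (SE 0.41) in the former and -1.45 (SE 0.42) in the latter. For Ccr2 these were -1.80 (SE 0.28) and -0.73 (SE 0.35), for Cx3cr1 -1.27 (SE 0.24) and -0.56 (SE 0.25), and for Ccrl2 0.11 (SE 0.21) and -0.14 (SE 0.16). For Ccr1, Ccr2 and Cx3cr1 the negative sign was fixed in any such split, since their groups did not overlap, so only the sizes are of use, and their difference between the 2 kinds of heart was not tested.

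**Figure D4:**
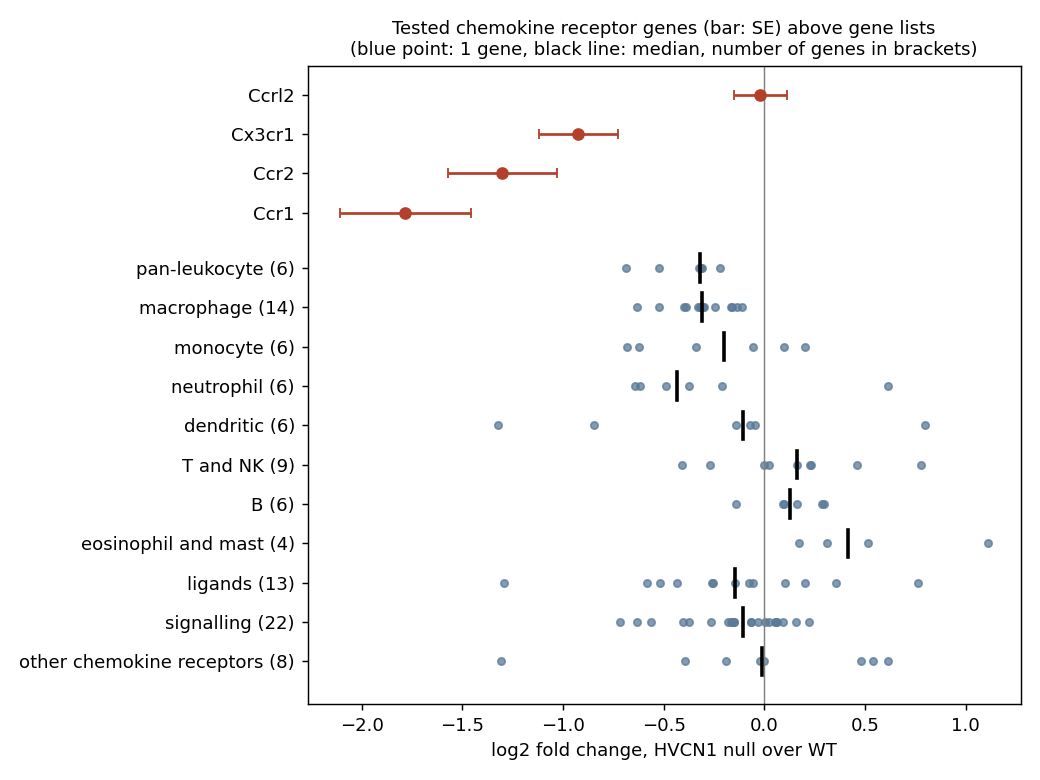
Log2 fold change (x axis, HVCN1 null over WT) of the 4 tested receptor genes, in red with SE, above the tested genes of leukocyte marker lists, ligands, signaling genes and other chemokine receptors, in blue with the median as a black line and the number of genes in brackets. Ccr1, Ccr2 and Cx3cr1 lie between -1.78 and -0.92, and the list medians between -0.43 (neutrophil) and 0.41 (eosinophil and mast cell).

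Within each genotype the members did not vary together as one group. Deviations of log2 CPM from the genotype mean were compared over the 8 hearts (6 degrees of freedom), as a description, since the values of a heart share its library and its mix of cells. Ccr2 and Cx3cr1 varied together, with a Pearson correlation of 0.95. Both were highest in hearts 4 and 7 of their groups and both lowest among WT hearts in heart 6. Ccr1 was only weakly related to either (0.25 with Ccr2, 0.10 with Cx3cr1), being highest in hearts 2 and 5, and Ccrl2 was unrelated to Ccr2 and Cx3cr1 (-0.11 and -0.10) and at 0.31 with Ccr1. The median correlation over the genes of a marker list was, for Ccr2, 0.66 with the pan-leukocyte, 0.45 with the monocyte, 0.56 with the T and NK cell and 0.0048 with the macrophage genes. For Cx3cr1 these medians were 0.48, 0.26, 0.48 and -0.03, and for Ccr1 0.16, -0.04, -0.24 and 0.47. The neighbors Ccr1 and Ccr2 were less alike in these hearts than Ccr2 and the distant Cx3cr1, a difference that was not tested.

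**Figure D5:**
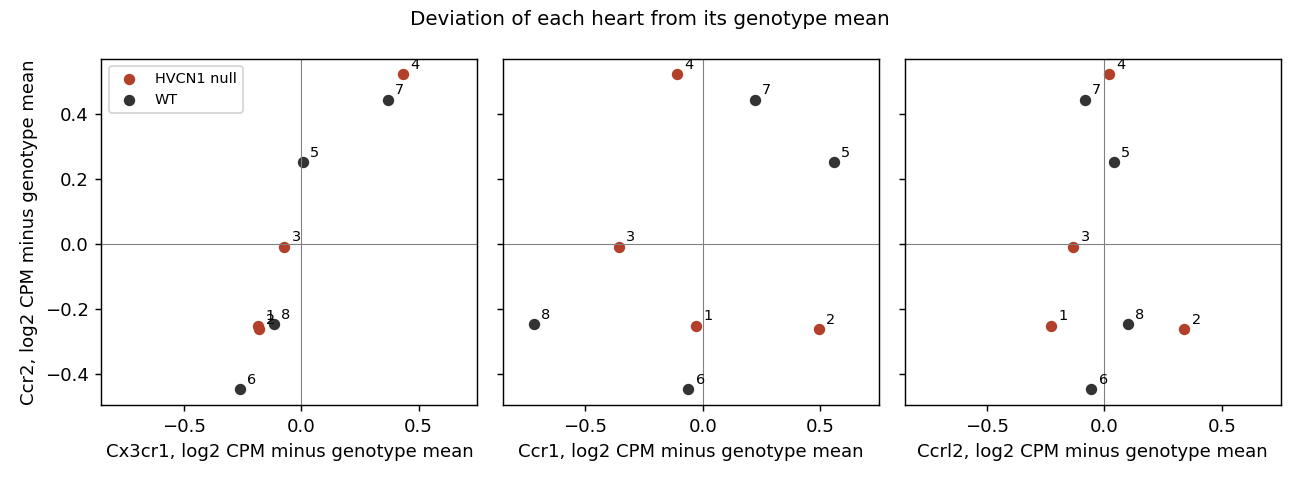
Deviation of Ccr2 from its genotype mean (y axis, log2 CPM) against that of Cx3cr1, Ccr1 and Ccrl2 (x axes, log2 CPM), with 1 numbered point per heart, HVCN1 null in red and WT in black. The points of Cx3cr1 follow a line (Pearson correlation 0.95) and those of Ccr1 and Ccrl2 scatter (0.25 and -0.11).

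Over all tested genes, those most like Ccr2 within genotypes were Rtn3 (0.980), Zap70 (0.979), Fance (0.974), Pold1 (0.965) and Tapbpl (0.956). Zap70 is a kinase of the T cell receptor. Those most like Cx3cr1 were Rtn3 (0.982), the leukocyte integrin Itgal (0.966), Fam3c (0.952), Ccr2 (0.95) and Tlcd2 (0.941), so Ccr2 ranked the fourth. For Ccr1 they were the MHC class I gene H2-T22 (0.973), the interferon-induced GTPase Ifi47 (0.966), Dusp26 (0.966), Avil (0.965) and Mthfd2 (0.958). For Ccrl2 they were Tasp1 (0.955), the mast cell tryptase Tpsb2 (0.955), Gle1 (0.954), Rpap2 (0.95) and Kcna7 (0.948). With so many genes and 8 hearts, values this high arise for any gene, and they are given as a description.

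The ligands of these receptors were mixed. Of 16 ligand genes 13 were tested, of which 4 had a positive and 9 a negative log2 fold change (median -0.15). In edgeR's quasi-likelihood test 0 of them were DEGs and 4 of the 13 had an unadjusted p under 0.05 (11% of all genes), while DESeq2 gave 1 DEG, edgeR's likelihood ratio test 2, and leaving out WT heart 5 gave 1. The eosinophil attractant Ccl11, a ligand of CCR3, was at 5.49 ± 0.690 CPM in HVCN1 null and 3.23 ± 0.757 in WT hearts (log2 fold change 0.76, SE 0.18, adjusted p = 0.0960). Ccl12, a ligand of CCR2, was at 0.402 ± 0.203 and 0.99 ± 0.174 CPM (-1.29, SE 0.40, adjusted p = 0.217), and Ccl7, another, had a log2 fold change of -0.58 (adjusted p = 0.610).

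The ligands of CCR1 Ccl9 and Ccl6 were at 7.86 ± 1.45 against 11.3 ± 2.60 CPM and at 13.1 ± 3.29 against 17.7 ± 2.47 CPM (log2 fold changes -0.52 and -0.43, adjusted p = 0.306 and 0.375 by edgeR's quasi-likelihood test). Rarres2, which encodes chemerin, was the ligand gene highest in CPM, at 20.8 ± 5.29 and 21.6 ± 6.66 CPM (-0.06, adjusted p = 0.977). Cx3cl1 (fractalkine) was at 15.5 ± 2.65 and 18.4 ± 1.36 CPM (-0.25, adjusted p = 0.531), and Cxcl16 at 15.3 ± 3.27 and 14.2 ± 3.78 CPM (0.10, adjusted p = 0.935). Xcl1 gave 5 and 12 counts over the groups and was not tested.

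Of 23 genes of the signaling chain below the receptors, 22 were tested, of which 8 had a positive and 14 a negative log2 fold change (median -0.11). In edgeR's quasi-likelihood test 0 of them were DEGs and 2 of the 22 had an unadjusted p under 0.05, a share below the 11% of all genes, and DESeq2 gave 0 as well. Gnai2, the main inhibitory G protein subunit of leukocytes, was the highest in CPM, at 280 ± 27.7 CPM in HVCN1 null and 251 ± 14.8 in WT hearts (0.16, adjusted p = 0.683). Among the largest differences were those of leukocyte kinases and regulators. They included Fgr (-0.72, adjusted p = 0.682), Pik3cg (-0.63, adjusted p = 0.247), Was (-0.40, adjusted p = 0.458) and Rgs10 (-0.38, adjusted p = 0.537), each a log2 fold change from edgeR's quasi-likelihood test.

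Of 16 further chemokine receptor genes of the genome, 8 were tested, of which 4 had a positive and 4 a negative log2 fold change (median -0.01), and 1 was a DEG. Ackr3, a scavenger of CXCL12, was the highest in CPM, at 66.8 ± 2.55 CPM in HVCN1 null and 87.9 ± 10.6 in WT hearts (log2 fold change -0.40, edgeR's quasi-likelihood test, adjusted p = 0.115). Cxcr4, the signaling receptor of the same ligand, lay the other way, at 9.34 ± 2.19 and 6.70 ± 1.66 CPM (0.48, adjusted p = 0.471). Others of chromosome 9 outside the 8 were Ackr4 (a log2 fold change of 0.00016), Ackr2 (-0.19, adjusted p = 0.931) and Cxcr5 (0.54, adjusted p = 0.849), and Ccr4, Ccr8 and Ccr1l1 had 4, 1 and 8 counts over all hearts.

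Most neighbors of the receptors on the chromosome differed little between the genotypes. Within 1 Mb of a member, 74 of 152 other genes were tested, of which 31 had a positive and 43 a negative log2 fold change (median -0.02). Among the 74 was 1 DEG, 1.35% against 1.14% over all genes. Fyco1, which encloses Cxcr6, was at -0.18 (adjusted p = 0.846), and Lztfl1, which lies within the span of Ccr9, at -0.05 (adjusted p = 0.942). Myl3, a ventricular myosin light chain near Ccrl2, was the highest in CPM (4201 ± 800 and 4437 ± 1076 CPM, -0.08, adjusted p = 0.954). The largest differences among the others were those of Cdcp1 (-1.59, adjusted p = 0.531), Cspg5 (1.16, adjusted p = 0.257), Lars2 (0.81, adjusted p = 0.610) and Kif9 (-0.68, adjusted p = 0.731), by edgeR's quasi-likelihood test.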

How the data were processed

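RNA-seq was performed on 8 mouse hearts, 4 HVCN1 null and 4 WT. Libraries of poly-A RNA were read from both ends, and the authors mapped the reads with STAR and assigned them to Ensembl genes with featureCounts. What they deposited is a table of raw, unnormalized counts. The submitters' processing notes name mm10 and GRCm38, the versions and the strand setting are not given in the sources used here, and without it reads of overlapping antisense genes cannot be told apart. Of 39056 identifiers, 38872 (99.5%) were matched to GENCODE M21 on GRCm38, from which positions and exon lengths were taken. Promoter windows came from RefSeq (GRCm38.p6), where all 8 members were found.

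The 8 members and all gene lists were chosen with earlier results of these data known. From the counts, CPM were computed with TMM-scaled library sizes, and DEGs were called over 14796 genes with edgeR 4.0.16 (filterByExpr defaults, quasi-likelihood test, HVCN1 null over WT, Benjamini-Hochberg adjusted p under 0.05) in R 4.3.3. Ratios of counts for genes too low to test have exact conditional 95% intervals. Genes are compared with each other per kilobase of merged exons. Likeness used log2 CPM with a prior count of 2. Of the ligand, signaling and neighborhood lists, DEGs, the most abundant gene and the 5 largest changes are named. Of each marker list the most abundant gene is named where it helps, and any other gene was named with its values in view. Some genes of the lists are left unreported, but the counts over lists include them. P-values measure the spread between these hearts, 4 mice per genotype. The test was run on simulated counts with known changes. Alternatives were 2 other scalings, 2 other filters, 3 other tests (DESeq2 1.42.0, voom of limma 3.58.1 and edgeR's likelihood ratio test) and each heart left out in turn. Tables and plots were written in Python 3.11.15 (matplotlib 3.10.9, numpy 2.4.6, pandas 2.3.3, scipy 1.17.1).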

Additional observations from a re-analysis of the deposited data

Results flagged for a closer look

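In each genotype, the highest or lowest of the 4 hearts was compared with the rest by Dixon's gap test for the 8 receptor genes, Hvcn1 and the gene lists. Of 58 groups, 5 had a heart that stood apart, and chance gives about 1 in 20. Cx3cr1 was at 4.13 CPM in HVCN1 null heart 4, against 2.67 to 2.89 in the other 3. Ccr3 was at 0.0268 CPM in HVCN1 null heart 2, a single count, against 0 in the others. The summed monocyte markers were at 37.8 CPM in HVCN1 null heart 1, against 18.8 to 21.4. The summed erythroid markers were at 15207 CPM in WT heart 5, against 3010 to 5026. The genes within 1 Mb of a member summed to 6812 CPM in WT heart 7, against 9158 to 9587.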

How the results depend on the processing

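No paired analysis was possible because hearts of different genotypes carry different numbers. Over 15 other fits (other scalings, filters and tests, and each heart left out), the log2 fold change ran from -2.0 to -1.56 for Ccr1, from -1.52 to -1.13 for Ccr2 and from -1.10 to -0.78 for Cx3cr1. Ccr1 was a DEG in 8 of the 15, and Ccr2 and Cx3cr1 in 4 each. Ccrl2 turned sign, at 0.02 (0.0205) without scaling, and ran from -0.15 to 0.0543 with 1 heart left out. Leaving out 1 heart gave 71 (without WT heart 6) to 152 DEGs (18 to 53 of them lower), against 169 (59), with 92 to 104 without hearts 1, 3, 5 or 8, and DESeq2 gave 466 (186) and the likelihood ratio test 376 (164). In only the hearts of high atrial marker level there were 24 DEGs (1 lower), Ccr2 was at -1.80, Cx3cr1 at -1.27 and Ccrl2 at 0.11. In only those of low level there were 71 DEGs (25 lower), Ccr2 was at -0.73 and Cx3cr1 at -0.56. In these subsets the median of the signaling list was -0.28 and 0.12, and the other receptors and the neighborhood held 0 DEGs.

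The median of the other receptors was -0.29 without a filter, -0.19 with a CPM above 1 in at least 4 hearts and 0.27 in hearts of low atrial level, and ran from -0.0305 to 0.18 with 1 heart left out. That of the neighborhood was 0.02 (0.0172) without scaling and ran from -0.035 to 0.0062, that of the ligands from -0.27 to -0.08 and that of the signaling list from -0.20 to -0.02. DEGs among the other receptors were 2 by DESeq2, those of the neighborhood 2 by DESeq2 and 2 by the likelihood ratio test, and those of the ligands 1 and 2. With 1 heart left out each of these 3 lists held 0 to 1. The DEG of the other receptors was called only without heart 2 or heart 7, that of the neighborhood only without heart 2. The number of neighboring pairs that differed in level was 3 or 4 throughout. The cause of these shifts was not tested. Counts of 0 to 21 for Xcr1, Cxcr6, Ccr9 and Ccr3 limit what can be said of them.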
